A study of Mus with 6 samples.

Results

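The pericentral Wnt-target genes are 10 genes that are transcribed mainly, or most strongly, in the hepatocytes around the central vein of the liver lobule. They were chosen by name: Glul, Oat, Slc1a2, Rhbg, Lgr5, Axin2, Tbx3, Rnf43, Znrf3 and Lhpp. All 10 were found among the 48882 genes of the deposited table, and all 10 were abundant enough to test. The values come from RNA sequencing of 6 mouse liver samples in 2 groups. One group is 3 samples from Fabp4 knockout mice (FABP4-/-), which lack an intracellular lipid carrier of fat cells and macrophages. The other is 3 samples from their wild type (WT) littermates. All 6 samples come from mice given a Lieber-DeCarli ethanol liquid diet for 8 weeks and then a single ethanol binge, given to induce alcoholic steatohepatitis (ASH), a fatty and inflamed liver. Livers without ethanol were not analysed here, so both groups carry the effect of the diet. The sources used here give no strain, sex or age for the mice and do not state whether each sample is 1 mouse.

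Blood enters the liver lobule at its portal edge and leaves through the central vein, and hepatocytes differ in gene activity along that path. Endothelial cells around the central vein secrete Wnt proteins and R-spondin. Wnt binding stabilises beta-catenin in neighbouring hepatocytes, which switches on genes of glutamine synthesis and drug metabolism and also genes that feed back on the Wnt pathway itself. The 10 genes fall into 2 kinds. Glul, Oat, Slc1a2 and Rhbg handle glutamate, glutamine and ammonia, and with them stands the phosphatase gene Lhpp. Lgr5, Rnf43, Znrf3 and Axin2 are receptors and feedback inhibitors of the Wnt pathway, and with them stands the transcription factor gene Tbx3.

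Expression was given as TPM, a length-corrected unit of transcript abundance that lets levels be compared between genes, with a limit. The values look normalized by rank, which can alter ratios between genes of unlike level. TPM keeps no sequencing depth, and the depth of the libraries is unknown. Differences are knockout minus wild type on the log2(TPM + 1) scale, estimated with limma over the 14155 genes with a mean of at least 0.5 TPM. A gene passed the test when its p, Benjamini-Hochberg adjusted over all of these, was under 0.05. Fabp4, the deleted gene, had 14.7, 8.15 and 20.0 TPM in the 3 wild type livers and a blank, read as 0, in every knockout liver. The liver label was checked with 11 hepatocyte markers, of which the 10 besides Alb summed to 46538 to 57630 TPM per library. Alb, the most abundant gene, had 98738 TPM in every library, a value set by the normalization. Principal components of all tested genes set 2 libraries apart, wild type replicate 2 on the first (-38.1, the others from -2.50 to 22.3) and knockout replicate 1 on the second (-30.8, the others from -5.92 to 21.8). In bulk liver, fewer pericentral cells and less RNA per cell cannot be told apart.

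None of the 10 genes passed the test between knockout and wild type livers (limma, adjusted p between 0.542 and 0.987). Glutamine synthetase (Glul), the classical marker of the last layer of hepatocytes before the central vein, had group means of 703 and 707 TPM. The ammonia channel gene Rhbg stood out among the 10 by its values, with 8.21 ± 0.567 TPM (SD, n = 3) in the knockout and 14.9 ± 5.78 TPM (SD, n = 3) in wild type, and it was the only one whose 2 groups did not overlap. The log2 difference was below 0 for 8 of the 10 genes, as for 42.6% of all genes tested. The median of the 10 was -0.08, where the median over all genes tested was 0.04. At an unadjusted p under 0.05 there was 1 gene lower and 0 higher of 10, against 2.91% lower and 5.12% higher of all genes tested. These shares also stand beside the counts of the other lists below. Over all genes, 0.00706% passed the adjusted threshold, which was Fabp4 alone.

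**Figure D1:**
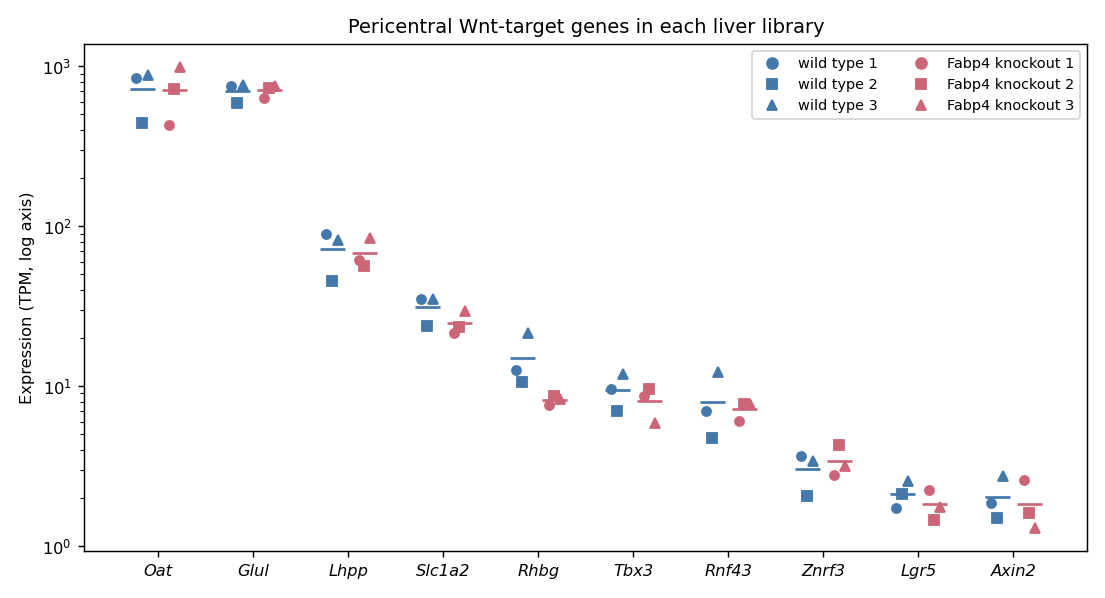
Expression of the 10 genes (x axis, ordered by mean level) in TPM on a log axis, with 1 point per library, wild type in blue and Fabp4 knockout in red, symbols for replicates 1, 2 and 3, and a bar at each group's mean. Rhbg is the gene whose 3 knockout points (7.60 to 8.71 TPM) all lie under the 3 wild type points (10.6 to 21.5 TPM).

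The 10 genes covered a wide range of levels. Oat averaged 719 TPM and Glul 705 TPM over the 6 libraries, both at percentile 98.7 of the genes tested. Oat was the higher of the pair in 3 of 6 libraries, so their order was not fixed. Lhpp followed at 69.9 TPM and Slc1a2 at 28.1 TPM, and the ranges of Glul, Lhpp and Slc1a2 did not overlap. Rhbg (11.6 TPM), Tbx3 (8.78 TPM) and Rnf43 (7.59 TPM) had overlapping ranges. Slc1a2 exceeded Rhbg in 6 of 6 libraries, although the lowest Slc1a2 and the highest Rhbg value were both 21.5 TPM. Znrf3 (3.22 TPM) lay under Rnf43 in every library. Lgr5 (1.98 TPM, percentile 24.5) and Axin2 (1.93 TPM, percentile 24.0) were the lowest and could not be separated from each other. Rnf43, Znrf3, Lgr5, Axin2 and Tbx3, the genes of Wnt signalling and transcription, reached at most 12.2 TPM in any library.

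Glul (mm10 chromosome 1, 153899929 to 153909723, plus strand) encodes the enzyme that joins ammonia to glutamate and so takes up the ammonia that passes the urea cycle. Wild type replicates 1, 2 and 3 had 756, 591 and 762 TPM. Knockout replicates 1, 2 and 3 had 633, 734 and 754 TPM. The groups overlapped fully, and the lowest value was that of wild type replicate 2. The log2 difference was 0.01 (SE 0.15, limma 95% interval -0.33 to 0.36), and it took the other sign after median scaling (-0.03) or upper-quartile scaling (-0.01). Glul also varied little between libraries, with a highest-to-lowest ratio of 1.29.

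Oat (chromosome 7, 132557475 to 132576398, minus strand), ornithine aminotransferase, turns ornithine into a precursor of glutamate in the same pericentral cells. Its wild type values were 844, 443 and 885 TPM. Its knockout values were 428, 721 and 990 TPM. One library of each group, wild type replicate 2 and knockout replicate 1, was low, and the other 4 lay between 721 and 990 TPM. These are the 2 libraries that lay apart on the principal components. The log2 difference was -0.04 (SE 0.36, limma 95% interval -0.88 to 0.80), the widest interval of the 10, and its sign depended on single libraries. It was 0.11, 0.14 and 0.29 without wild type replicate 1, wild type replicate 3 and knockout replicate 1, and -0.36 without wild type replicate 2.

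Slc1a2 (chromosome 2, 102658594 to 102790784, plus strand), the glutamate transporter also known from glia, brings glutamate into pericentral hepatocytes. Its wild type values were 35.1, 23.9 and 35.0 TPM. Its knockout values were 21.5, 23.5 and 29.6 TPM. Knockout replicates 1 and 2 lay under every wild type library, and knockout replicate 3 lay between wild type replicate 2 and the other two. The log2 difference was -0.31 (SE 0.19, limma 95% interval -0.76 to 0.13, unadjusted p 0.142, adjusted p 0.730). Without wild type replicate 2 it was -0.49 with no overlap between groups (limma adjusted p 0.834, unadjusted 0.0223).

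Rhbg (chromosome 3, 88242874 to 88254740, minus strand) encodes a membrane channel for ammonia of the Rhesus glycoprotein family. Wild type replicates 1, 2 and 3 had 12.7, 10.6 and 21.5 TPM. Knockout replicates 1, 2 and 3 had 7.60, 8.71 and 8.33 TPM. All 3 knockout values lay below the lowest wild type value, and the wild type values were spread more widely, with replicate 3 the highest. The mean of the knockout was 0.550 of the wild type mean, and the log2 difference was -0.73 (SE 0.24, limma 95% interval -1.28 to -0.18). The unadjusted p was 0.0158 and the adjusted p 0.542 in limma, rank 412 of 14155 genes. By exact permutation over the 6 libraries the two-sided p was 0.1, which is the minimum for groups of 3. Knockout values without overlap below wild type were seen for 1 of the 10 genes and for 4.38% of all genes tested, and values without overlap above for 0 of 10 and 8.94%. Wild type replicate 3 carried much of the size of the difference, which was -0.45 without it. In all 16 alternative settings Rhbg was lower without overlap (log2 -0.93 to -0.45). Only the scalings could have changed this, since the other settings keep the order of the values or leave libraries out. In none did Rhbg pass after adjustment (limma adjusted p 0.440 to 0.989).

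Set against Glul within each library, Rhbg was at 0.0168, 0.0180 and 0.0282 of the Glul level in wild type. In the knockout it was at 0.0120, 0.0119 and 0.0111 of the Glul level. Since Glul was close to equal between the groups, this ratio mostly repeats the values of Rhbg, and a normalization by rank can alter ratios between genes of unlike level.

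Lhpp (chromosome 7, 132610614 to 132706420, plus strand), a phosphatase that removes phosphate from phosphohistidine, was at 89.2, 45.4 and 82.0 TPM in wild type. It was at 61.3, 56.8 and 84.6 TPM in the knockout. The groups overlapped, with wild type replicate 2 the lowest of the 6 (log2 difference -0.06, SE 0.27, limma adjusted p 0.975). Leaving out wild type replicate 1 gave 0.12, leaving out wild type replicate 3 gave 0.06, leaving out knockout replicate 2 also gave 0.06, and leaving out knockout replicate 1 gave 0.00. Lhpp is a neighbour of Oat, on the opposite strand and 34215 bases away, with 3 listed genes between them of which 0 were abundant enough to test. Both genes were high in wild type replicates 1 and 3 and knockout replicate 3 and low in wild type replicate 2. They differed more in knockout replicate 1 (log2 deviations -0.67 for Oat and -0.15 for Lhpp) and knockout replicate 2 (0.08 and -0.25). In likeness to the pattern of Oat, Lhpp ranked 56 of 8074 genes. The Oat to Lhpp ratio was 9.47, 9.76 and 10.8 in wild type livers and 6.98, 12.7 and 11.7 in the knockout.

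**Figure D2:**
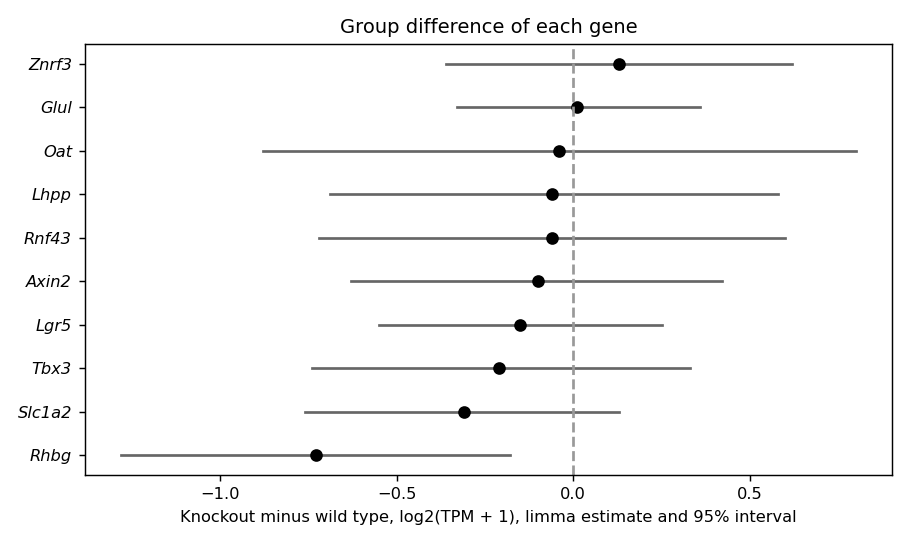
Difference of each of the 10 genes between knockout and wild type on the log2(TPM + 1) scale (x axis), with the limma estimate as a point and its 95% interval as a line. The interval of Rhbg (-1.28 to -0.18) is the only one that leaves out 0, before any adjustment for the number of genes tested, and that of Oat is the widest.

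Among the Wnt pathway genes, Lgr5 (chromosome 10, 115450314 to 115587780, minus strand) encodes a receptor for R-spondins that raises the cell's response to Wnt. It was at 1.73, 2.11 and 2.55 TPM in wild type. It was at 2.25, 1.46 and 1.76 TPM in the knockout. The ranges overlapped, and the log2 difference was -0.15 (SE 0.17, limma adjusted p 0.865).

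Rnf43 (chromosome 11, 87663087 to 87735539, plus strand) and Znrf3 (chromosome 11, 5276329 to 5444847, minus strand) encode related membrane ubiquitin ligases. They remove Wnt receptors from the cell surface and are held back by R-spondin and Lgr receptors. Rnf43 was at 7.04, 4.76 and 12.2 TPM in wild type livers and at 6.04, 7.79 and 7.72 TPM in the knockout. Both the lowest and the highest Rnf43 value belonged to the wild type group, and the knockout values lay between them (log2 -0.06, SE 0.29, limma adjusted p 0.974). Leaving out wild type replicate 3 gave a difference of 0.26 and leaving out knockout replicate 1 one of 0.04, so its sign depended on single libraries. Znrf3 was at 3.66, 2.07 and 3.42 TPM in wild type livers and at 2.77, 4.28 and 3.15 TPM in the knockout. It was 1 of the 2 genes with a difference above 0 (log2 0.13, SE 0.21, limma adjusted p 0.910), and the sign turned without wild type replicate 2 (-0.06) or knockout replicate 2 (-0.01). Within a library Znrf3 was at 0.280 to 0.549 of the Rnf43 level. Rnf43 overlaps a long noncoding RNA gene on the same strand, 1110028F11Rik, which averaged 0.707 TPM, and how shared reads were counted is unknown. Antisense and other genes that overlap Slc1a2, Lgr5, Axin2, Tbx3 and Lhpp averaged at most 0.235 TPM.

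Axin2 (chromosome 11, 108917828 to 108950783, plus strand), a scaffold of the complex that degrades beta-catenin and a widely used readout of Wnt activity, was at 1.85, 1.49 and 2.75 TPM in wild type. It was at 2.59, 1.60 and 1.30 TPM in the knockout. Each group held 1 library above 2.5 TPM, and the groups overlapped (log2 -0.10, SE 0.23, limma 95% interval -0.63 to 0.42). The sign turned without wild type replicate 3 (0.06) or knockout replicate 3 (0.03). Tbx3 (chromosome 5, 119670319 to 119684724, plus strand), a T-box transcription factor, was at 9.65, 6.95 and 11.9 TPM in wild type livers and at 8.74, 9.57 and 5.87 TPM in the knockout. Its lowest value was in knockout replicate 3 and its highest in wild type replicate 3 (log2 -0.21, SE 0.23, limma adjusted p 0.859).

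Across the 10 genes, the 2 libraries farthest apart both came from wild type livers. Wild type replicate 3 was above the gene's mean over the libraries for all 10 genes and was the highest library for 6 of them. Wild type replicate 2 was below the mean for 9 and the lowest for 4, with a median deviation of -0.26, against 0.35 in wild type replicate 3. The medians of wild type replicate 1 and knockout replicates 1, 2 and 3 were 0.16, -0.15, -0.04 and 0.03. Without wild type replicate 2 the median difference of the 10 genes was -0.35, and 4 genes (Glul, Slc1a2, Rhbg and Tbx3) lay lower without overlap, where 7.44% of all genes did. Without wild type replicate 3 the median difference was 0.06. With wild type replicate 2 and knockout replicate 1 both left out, which was tried only after seeing the data, 5 genes were lower without overlap, Axin2 being the fifth, against 16.2% of all genes.

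The pooled within-group SD on the log2 scale had a median of 0.33 over the 10 genes, against 0.21 over all genes tested. For 8 of the 10 it exceeded the median of genes of like level (within 0.5 on the log2 scale). Oat had the widest, 0.58 against 0.21 for the 134 genes of its level. Glul (0.18 against 0.21) and Lgr5 (0.20 against 0.24) were the exceptions.

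**Figure D3:**
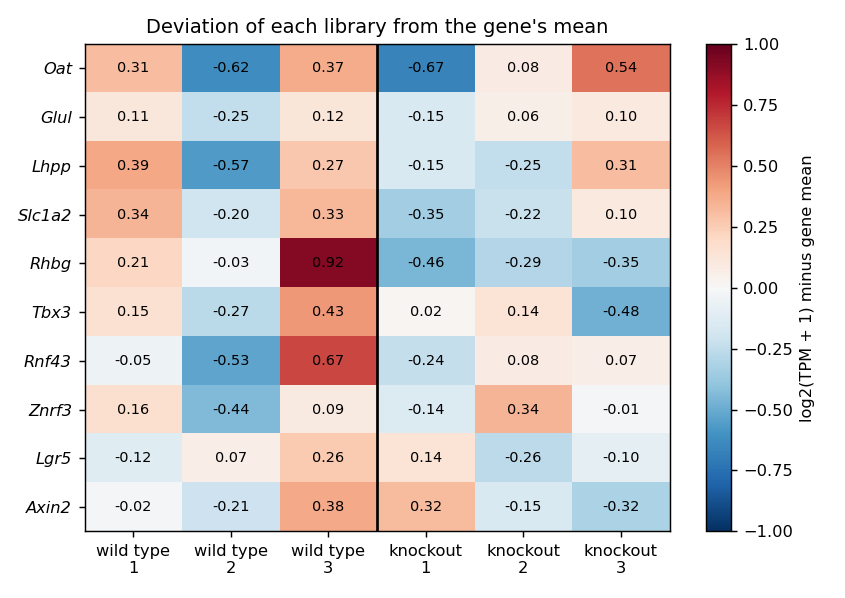
Deviation of each library (columns) from the gene's mean over the 6 libraries (rows, the 10 genes by level), in log2(TPM + 1) units, with red above and blue below the mean and the value printed in each cell. The column of wild type replicate 3 is above 0 throughout, that of wild type replicate 2 is below 0 except for Lgr5 (0.07), and the row of Rhbg is below 0 in all 3 knockout libraries.

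Among the genes whose pattern over the 6 libraries was closest to that of Glul were Gm10768 (a predicted long noncoding RNA), Znfx1, Slc27a2 (a fatty acid transporter and acyl-CoA synthetase) and Atg5. The root-mean-square difference of their deviations was 0.031 to 0.045 on the log2 scale, against a median of 0.237 over 8074 genes with at least 5 TPM. For Axin2 the closest were Mpst, Gtf2a1, Cblc, Appl2 and Uqcrq, at 0.066 to 0.097 against a median of 0.325 over 8075 genes. Within the set, the closest pairs were Glul with Znrf3 (0.15) and Lgr5 with Axin2 (0.18). These are descriptions over 6 libraries.

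Other genes of the same nitrogen handling were read from the same fit. Of 29 listed genes, which include Glul, Oat, Slc1a2 and Rhbg, 23 were tested, and none passed after adjustment. At an unadjusted p under 0.05, 3 were lower (Asns, Rhbg and Gpt2) and 1 was higher (Glud1). Asns, which makes asparagine with glutamine as nitrogen donor, was at 5.50, 15.8 and 6.12 TPM in wild type livers and at 2.67, 1.20 and 2.14 TPM in the knockout (log2 -1.64, SE 0.37, limma adjusted p 0.522). Glud1, glutamate dehydrogenase, which releases ammonia from glutamate, was at 667, 692 and 638 TPM in wild type livers and at 831, 853 and 875 TPM in the knockout (log2 0.36, SE 0.11, limma adjusted p 0.536). The values of both genes did not overlap between groups. Gpt2, which encodes an alanine aminotransferase, had means of 176 ± 48.1 TPM in wild type and 118 ± 18.2 TPM in the knockout (SD, n = 3 each). Gls2, the liver glutaminase of portal hepatocytes that works opposite to Glul, was at 214, 109 and 197 TPM in wild type livers and at 153, 227 and 219 TPM in the knockout (log2 0.24, SE 0.28). The Glul to Gls2 ratio was 3.54, 5.42 and 3.87 in wild type livers and 4.14, 3.23 and 3.44 in the knockout, with the groups overlapping.

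Of 27 other genes with pericentral expression, 26 were tested, 12 with a difference above and 14 below 0, and the median was -0.03. None passed after adjustment, and at an unadjusted p under 0.05 there was 1 on each side. Cldn2, a tight junction claudin, was at 46.9, 58.1 and 65.7 TPM in wild type livers and at 42.5, 32.8 and 38.6 TPM in the knockout, without overlap (log2 -0.57, SE 0.16, limma adjusted p 0.536). Cyp3a11, a drug-metabolising cytochrome P450, was higher without overlap, with means of 6363 ± 946 TPM in the knockout and 4473 ± 807 TPM in wild type (SD, n = 3 each, limma adjusted p 0.564). The ethanol-oxidising Cyp2e1 averaged 4790 ± 1286 TPM (SD, n = 3) in wild type livers and 4393 ± 374 TPM (SD, n = 3) in the knockout (log2 -0.10, SE 0.20). Cyp1a2, a further beta-catenin-dependent P450, averaged 280 ± 47.0 and 216 ± 87.6 TPM (SD, n = 3 each; log2 -0.43, SE 0.28). Slc13a3, a dicarboxylate transporter gene, had a log2 difference of -0.36 (SE 0.19).

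Genes of the opposite, periportal zone had 18 of 24 differences above 0, where 57.4% of all genes tested did, and a median of 0.17. Without wild type replicate 2, 11 of the 24 were above 0 and the median was -0.01. Leaving out that library left 1 of the 24 higher at an unadjusted p under 0.05. None passed after adjustment, and 3 were higher and 0 lower at an unadjusted p under 0.05. Cdh1, E-cadherin of portal hepatocytes and bile ducts, was at 4.29, 2.55 and 2.71 TPM in wild type livers and at 4.94, 11.4 and 9.51 TPM in the knockout (log2 1.16, SE 0.29, limma adjusted p 0.522). Hsd17b6 (log2 1.09, SE 0.35) and Etnppl (1.46, SE 0.59) overlapped between groups, and Nags, which makes the activator of the urea cycle, did not (0.22, SE 0.11). No test compared the zones with each other. Wild type replicate 2 also had the lowest mean deviation of the periportal genes (-0.44), as it had for the 10 pericentral genes (-0.30). For the 26 other pericentral genes it was at -0.09, and wild type replicate 1 was the lowest (-0.27).

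**Figure D4:**
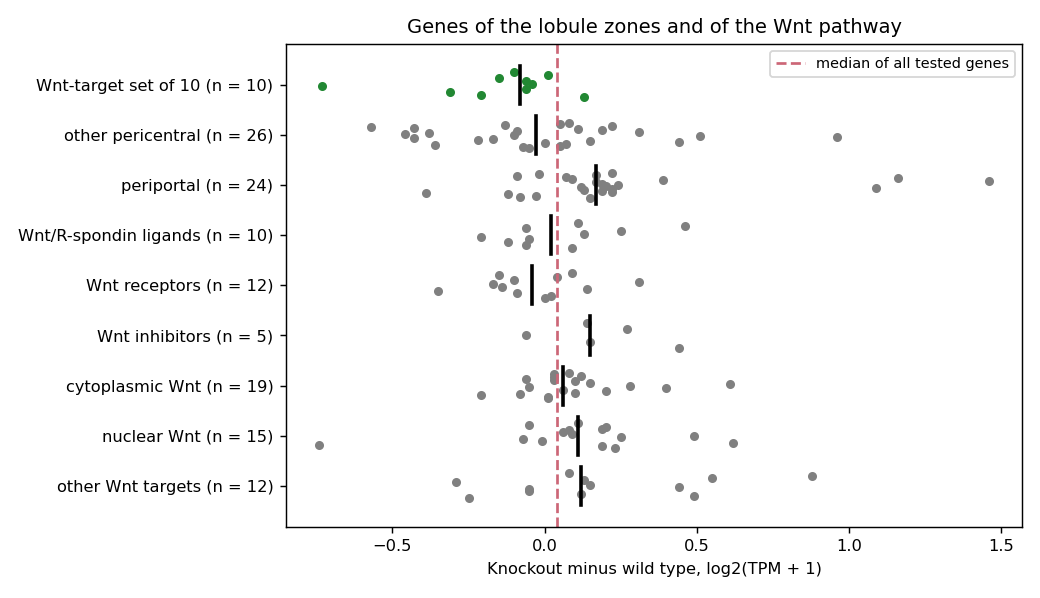
Difference between knockout and wild type on the log2(TPM + 1) scale (x axis) for each tested gene (points) of the lobule zones and of the Wnt pathway (rows, with the number tested), with a black bar at each list's median and a dashed line at the median of all genes tested (0.04). The list medians lie between -0.08 for the 10 pericentral Wnt-target genes and 0.17 for the periportal genes, and without wild type replicate 2 these were -0.35 and -0.01.

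Along the Wnt pathway, ligands and receptors showed no gene past the unadjusted threshold. Of 25 ligand, ligand-processing and R-spondin genes, 10 were tested, 5 with a difference above and 5 below 0 (median 0.02). Rspo3, the R-spondin of the central vein, was at 8.08, 6.83 and 8.00 TPM in wild type livers and at 9.66, 6.63 and 5.89 TPM in the knockout (log2 -0.06, SE 0.18). The endothelial ligands Wnt2 (1.15 ± 0.275 and 1.34 ± 0.117 TPM, SD, n = 3 each) and Wnt9b (0.448 ± 0.133 and 0.558 ± 0.277 TPM, SD, n = 3 each) were low in both groups. Wls, which carries Wnt proteins to the cell surface, had a log2 difference of 0.25 (SE 0.15). Rspo1 (0.46, SE 0.34) and Wnt2b (-0.21, SE 0.18) were under 1 TPM on average. Of 18 receptor genes, 12 were tested (6 above and 6 below 0, median -0.04), with Lrp6 at -0.35 (SE 0.23), Fzd7 at 0.31 (SE 0.22), the Lgr5 relative Lgr4 at -0.14 (SE 0.13) and Lrp5 at 0.14 (SE 0.15). Of 19 inhibitor genes, 5 were tested, and 4 had differences above 0, among them Notum (0.44, SE 0.31), an enzyme that removes the lipid of Wnt proteins, and Frzb (0.27, SE 0.18).

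Inside the cell, beta-catenin itself (Ctnnb1) averaged 137 ± 8.09 TPM (SD, n = 3) in wild type livers and 152 ± 13.8 TPM (SD, n = 3) in the knockout (log2 0.15, SE 0.12, limma adjusted p 0.795). Of 20 cytoplasmic genes of the pathway, 19 were tested, with 2 higher and 0 lower at an unadjusted p under 0.05 and a median of 0.06. Ctnnbip1, which blocks the binding of beta-catenin to TCF factors, was at 4.23, 3.90 and 4.99 TPM in wild type livers and at 5.82, 9.11 and 6.99 TPM in the knockout (log2 0.61, SE 0.18, limma adjusted p 0.530). Dvl1, a transducer next to the receptor, averaged 24.3 ± 1.67 and 32.5 ± 4.58 TPM (SD, n = 3 each; log2 0.40, SE 0.14). Dact1 (0.28, SE 0.14) was also without overlap, and Dvl3 (0.20, SE 0.14) was not.

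Of 16 nuclear factors, 15 were tested, with 2 higher and 1 lower at an unadjusted p under 0.05 and a median of 0.11. Without overlap, 4 were higher and 1 lower, against 8.94% and 4.38% of all genes tested. The corepressor gene Tle3 was lower without overlap (log2 -0.74, SE 0.14, limma adjusted p 0.522) and its relative Tle2 higher without overlap (0.62, SE 0.21). Tcf7 (0.49, SE 0.20) was next, with overlap, and Tcf7l1 (0.25, SE 0.13) followed without overlap. Tcf7l2, the main TCF factor of hepatocytes, averaged 3.96 ± 0.506 and 3.72 ± 0.289 TPM (SD, n = 3 each; log2 -0.07, SE 0.14). Of 17 other general Wnt targets, 12 were tested (median 0.12), with 2 higher and 0 lower at an unadjusted p under 0.05. They were Tcf7 and the cyclin gene Ccnd1, which averaged 70.4 ± 21.8 TPM (SD, n = 3) in wild type livers and 134 ± 56.3 TPM (SD, n = 3) in the knockout. Sp5, a direct target of beta-catenin, was at 1.25, 0.599 and 2.58 TPM in wild type livers and at 1.11, 1.74 and 0.993 TPM in the knockout.

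Markers of other cell types lay mostly higher in the knockout, where 57.4% of all genes tested had a difference above 0. Liver endothelial markers had 11 of 11 differences above 0, with summed levels of 146 to 198 TPM in wild type livers and 214 to 248 TPM in the knockout, led by Ehd3 (log2 0.79, SE 0.17), Oit3, Kdr and Cdh5. Macrophage markers had 10 of 10 above 0 (198 to 551 and 373 to 843 TPM), led by Vsig4 (1.04, SE 0.31), Timd4, Clec4f and Cd68. Stellate cell markers had 7 of 7 above 0 (239 to 299 and 276 to 352 TPM), with Col3a1 first (0.64, SE 0.24). Cholangiocyte markers had 5 of 5 tested above 0 (45.5 to 80.7 and 49.0 to 75.7 TPM). The 3 tested neutrophil markers of 8 were below 0 (19.9 to 48.9 and 14.3 to 19.9 TPM), and Camp was at 0 in every library. Central vein endothelial genes had 5 of 7 above 0 (15.6 to 20.3 and 14.9 to 21.5 TPM). Without overlap, 7 endothelial, 2 macrophage, 1 stellate, 0 cholangiocyte and 0 central vein genes were higher, against 8.94% of all genes tested. For neutrophils 1 was lower, against 4.38%. Hepatocyte markers, Alb included, summed to 152010 to 156367 TPM in wild type and to 145275 to 150808 TPM in the knockout. The sums did not overlap, yet 5 of the 11 genes were above 0 and 0 of 11 lay without overlap in either direction. The macrophage median, 0.80, lay between 0.45 and 1.21 when 1 library was left out. None of these genes passed after adjustment in limma. The part of these cells in the differences of the 10 genes was not tested.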

How the data were processed

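RNA of 6 liver samples (3 wild type, 3 Fabp4 knockout) was extracted with TRIzol and sequenced on a HiSeq instrument, per the labels' protocols. FastQC, Trimmomatic and the build mm10 are named in the submitters' processing notes. Aligner, quantification tool, annotation and strandedness: not given in the sources used here. The authors' table has columns headed TPM, yet the values deposited by the authors are log2 values, since many are negative and 2 raised to them adds up to 983800 to 1018118 in a library. The columns hold nearly the same sorted values, as quantile normalization would leave them, so a shift of all genes would be hidden.

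Values were back-transformed to TPM, with blanks as 0, and log2(TPM + 1) was modelled by group in R 4.3.3 with limma 3.58.1 (trended eBayes, two-sided tests, 4 residual and 3.65 prior degrees of freedom) for genes with a mean of at least 0.5 TPM. Benjamini-Hochberg adjustment ran over all 14155 genes. Depth is unknown, and 3 libraries per group limit the precision. Nothing says that the samples are separate animals, and the p-values then reflect only how these libraries vary, which may be technical. On simulated data for this comparison (14155 genes, 10 sets), limma recovered 62.4% of genes changed by 1 on the log2 scale. It recovered 93.2% of genes changed by 2 and 98.4% of genes changed by 3. The changed genes were drawn from those above a set level, and Lgr5 and Axin2 lay under it. Many genes were changed at once in each set, which eases the adjusted threshold, so these shares need not hold for the real data. Recovery of the 10 pericentral genes themselves was not tested. Their within-group SD had a median of 0.33, against 0.21 over all genes tested.

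The 10 genes and 16 further gene lists were chosen with earlier results of these data known. All 248 genes were matched, 246 by symbol and 2 through the GRCm38.p6 RefSeq gene table. Genes named are the 10, Fabp4, up to 4 per list with the smallest p, a few central pathway genes, and the 5 closest to Glul and to Axin2 in pattern. One gene that this rule names is not reported here. Sp5 was chosen after its values were seen. Alternatives were other pseudocounts, filters and scalings, the deposited log2 values, no trend, the replicate number as a block, and leaving out libraries.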

Additional observations from a re-analysis of the deposited data

How the results depend on the processing

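No setting brought any of the 10 genes past the limma threshold, and Rhbg, Slc1a2 and Tbx3 kept a difference below 0 in 16 alternative settings and Lgr5 in the 15 that tested it. For Rhbg only the scalings could have given another sign, as all its knockout values lay under the wild type ones. The genes past the threshold over all genes, 1 in the analysis above, were 0 without a filter, on the deposited log2 values and with a replicate block, and 3 without wild type replicate 2 and knockout replicate 1. On the deposited log2 values only genes with a value in all 6 libraries were tested, which leaves out Fabp4, the 1 gene called, by construction. The number ranged from 0 to 6 when 1 library was left out. At an unadjusted p under 0.05 in limma there were 1571, 1312, 816 and 998 genes in those 4 settings, against 1137. With a filter at 5 TPM 406 genes were higher and 251 lower at that level, and without knockout replicate 3 426 and 256. The shares over all genes were more even after median scaling, with 580 higher and 522 lower at that level. Without overlap, 6.78% were then higher and 6.24% lower, against 8.94% and 4.38% in the analysis above. Deviations of equal-numbered libraries correlated at -0.261, -0.265 and -0.049. The highest correlation between the groups, 0.276, joined wild type replicate 2 and knockout replicate 1, the 2 libraries that stood apart. With 3 libraries per group, single libraries can set such values, so they cannot decide whether libraries of equal number form pairs. With the replicate block Rhbg stayed at -0.73 (limma adjusted p 0.822).

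Glul was at -0.03 after median scaling, -0.01 after upper-quartile scaling and -0.03 without the 2 libraries that stood apart. When 1 library was left out, Glul ranged from -0.11 to 0.09, Oat from -0.36 to 0.29, Axin2 from -0.29 to 0.06, Rnf43 from -0.34 to 0.26, Znrf3 from -0.06 to 0.24 and Lhpp from -0.36 to 0.12 (0.00 without knockout replicate 1). The median of the 10 ranged from -0.35 to 0.06, and genes lower without overlap from 1 to 4, with 5 when both libraries were left out. List medians moved by more than the spread between libraries for nuclear Wnt factors (0.20 at a pseudocount of 0.1), Wnt inhibitors (0.02 and neutrophil markers -0.18 without a filter, 0.44 when at least 5 TPM was asked, 0.21 on the deposited log2 values), central vein endothelium (-0.06 with the 5 TPM filter), and, without both libraries, Wnt ligands (-0.11) and stellate markers (0.07). Leaving out 1 library moved periportal genes from -0.01 (without wild type replicate 2) to 0.34, other pericentral genes from -0.11 to 0.21, Wnt ligands from -0.12 to 0.07, inhibitors from 0.14 to 0.23, nuclear factors from 0.10 to 0.21 and hepatocyte markers from -0.07 to 0.09. The cause was not tested.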
